A study of Drosophila melanogaster with 6 samples.

Results

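The Cpr genes of Drosophila melanogaster encode cuticle proteins that carry the Rebers and Riddiford consensus, a stretch that binds chitin. Epidermal cells secrete them into the chitin layers of the body surface, and different members serve different body parts and stages of life. Many members lie side by side in the genome, and many are known for bursts of expression around moults. In the adult head the cornea of each eye unit is itself cuticle, secreted by cone and pigment cells. Members were taken as all genes of the deposited table whose FlyBase ID has a symbol beginning with Cpr and a digit, which gave 70 of 15886 entries.

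Levels came from RNA sequencing of 6 libraries from adult flies, 3 labelled RNAi-GLAD (genotype TubGS>RNAi-GLAD) and 3 labelled RNAi-Ctrl (genotype TubGS>RNAi-GFP). Both groups carry TubGS, a driver under the tubulin promoter that RU486 switches on, both were fed RU486, and both were sampled on day 7 of induction. The gene behind the name GLAD is not identified by the labels, so the knockdown itself was not checked. Strain, sex, exact age and the origin of each replicate are not in the labels either, so p-values measure the spread between these libraries, which may be technical. Each library is described as a pool of 100 brains, and the tissue is called head in one label and brain in another. Levels are in FPKM, which scales fragments by gene length and library depth. Eye tissue was present: the 6 photoreceptor markers matched summed to 41248 to 42611 FPKM per library, with ninaE, the main rhodopsin, at 25152 to 26327 FPKM. In whole tissue, fewer cells of a type and less RNA per cell cannot be told apart.

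The libraries numbered 3 went against their labels. The noncoding RNA lncRNA:CR40469 reached 1935, 2198 and 5.86 FPKM among controls, in the order of library numbers 1 to 3, and 4.20, 4.77 and 1718 FPKM among RNAi-GLAD libraries. For this RNA the library labelled RNAi-Ctrl 3 thus stood with RNAi-GLAD 1 and 2, and the library labelled RNAi-GLAD 3 with RNAi-Ctrl 1 and 2. Labels were kept, and each comparison is given for all 6 libraries and for the 4 libraries numbered 1 and 2. Whether the labels or columns of the libraries numbered 3 were exchanged cannot be settled from these data, and values over all 6 libraries hold only for the groups as labelled. The spacing of low values implied about 22000000 to 29500000 fragments per library, and 1 fragment in a gene of 2000 bp was worth at most 0.0227 FPKM. Values of 3 libraries of a group are listed below in the order 1, 2, 3.

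Most of the family was close to silent in these libraries, and Cpr65Au and Cpr72Ec made up most of its RNA. Summed over all members, Cpr levels were 1293 to 1635 FPKM per library, of which these 2 genes held 77.1% to 82.2%. They were the members with a mean of at least 100 FPKM over the 6 libraries, 8 more had a mean of 10 to under 100 FPKM, and 15 had 1 to under 10 FPKM. The remaining 45 had a mean under 1 FPKM, and 7 of them were listed at 0 in every library. The median of the 70 means was 0.363 FPKM against 3.89 FPKM over all entries of the table. A mean of at least 1 FPKM was reached by 35.7% of members and by 60.6% of all entries, while 10% and 9.43% were listed at 0 throughout.

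**Figure D1:**
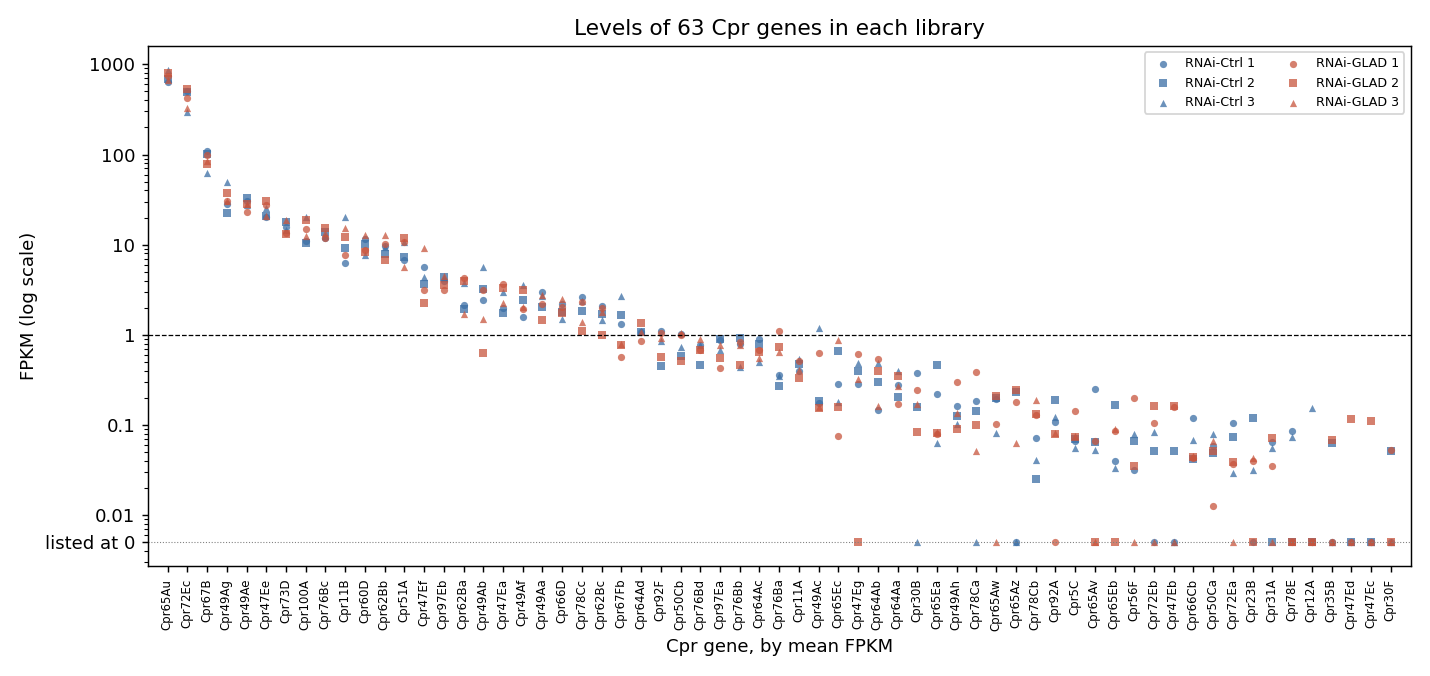
FPKM on a log axis of the 63 Cpr genes above 0 in at least 1 library, ordered by mean, with 1 marker shape per library number and colours for RNAi-Ctrl and RNAi-GLAD. The dashed line marks 1 FPKM and the dotted line values listed at 0. Cpr65Au and Cpr72Ec stand at 298 FPKM or more in every library, and most members lie under the dashed line.

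Cpr65Au was the most abundant member. Its levels were 629.8, 697 and 875 FPKM under RNAi-Ctrl and 736, 805 and 667 FPKM under RNAi-GLAD. The groups overlapped, and both the highest library (RNAi-Ctrl 3) and the lowest (RNAi-Ctrl 1) were controls. The gene lies on the minus strand of chromosome arm 3L, at 6131242 to 6132109 of BDGP6, at the edge of a run of 7 members that spans 30.3 kb. The other members of that run had means of at most 0.131 FPKM, and Cpr65Ax1, Cpr65Ax2 and Cpr65Ay were listed at 0. Of its 526 exonic bases, 491 are also covered by exons of asRNA:CR46005 on the plus strand. The sources used here do not state whether reads were counted by strand, so reads of these genes cannot be told apart.

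Cpr72Ec, a protein of the corneal lens, was next in level. It had 503, 498 and 298 FPKM under RNAi-Ctrl and 426, 538 and 331 FPKM under RNAi-GLAD. The libraries numbered 3 were the 2 lowest of the 6, which held for no other of the 25 members with a mean of at least 1 FPKM and for 7.58% of the 9631 genes at that level. In the same 2 libraries vri, a clock gene encoding a repressor that cycles daily, was highest, at 31.0 FPKM (RNAi-Ctrl 3) and 36.7 FPKM (RNAi-GLAD 3) against 9.87 to 15.7 FPKM in the others. The clock genes per (15.6 and 19.8 against 9.48 to 10.3 FPKM) and tim (34.5 and 43.9 against 20.8 to 23.9 FPKM) were also highest there. Clk was lowest there by a narrow margin (14.77 and 14.61 against 14.83 to 16.4 FPKM), and cry was not raised in both (185 and 207 against 175 to 194 FPKM). The part of these genes in the Cpr72Ec levels was not tested. Cpr72Ec lies on 3L at 16365894 to 16367340, minus strand, 186 bp from Cpr72Eb. Cpr72Eb had a mean of 0.0676 FPKM and Cpr72Ea, the third gene of that run, 0.0472 FPKM, each resting on 8 fragments over all libraries.

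Other lens proteins had levels far from that of Cpr72Ec. Cpr66D, also found in the corneal lens, had 2.22, 1.78 and 1.50 FPKM under RNAi-Ctrl and 2.02, 1.73 and 2.50 FPKM under RNAi-GLAD. Crys, the lens protein drosocrystallin and a Rebers and Riddiford protein outside the Cpr names, ranged from 3.72 to 4.40 FPKM. Its coefficient of variation over the 6 libraries was 5.93%, against 22.9% for Cpr72Ec and 18.6% for Cpr66D. The corneal protein retinin, chosen after its values were seen, ranged from 1258 to 1941 FPKM. In every library the order of FPKM levels was retinin, Cpr72Ec, Crys and Cpr66D.

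Below the leading pair, Cpr67B was the only member above 50 FPKM in every library. It had 109.8, 101 and 63.0 FPKM under RNAi-Ctrl and 98.1, 78.1 and 84.7 FPKM under RNAi-GLAD. Cpr49Ag followed with 28.5, 22.3 and 49.6 FPKM under RNAi-Ctrl and 30.3, 37.5 and 30.8 FPKM under RNAi-GLAD. Groups overlapped for both genes, and RNAi-Ctrl 3 was the lowest library for Cpr67B and the highest for Cpr49Ag. Cpr49Ae, at 30.8, 32.8 and 27.3 FPKM under RNAi-Ctrl and 22.9, 27.9 and 28.0 FPKM under RNAi-GLAD, was above Cpr49Ag in some libraries and below it in others. Cpr47Ee ranged from 20.2 to 30.2 FPKM, Cpr73D from 13.1 to 18.7 FPKM and Cpr100A from 10.3 to 20.1 FPKM. Cpr76Bc (11.7 to 15.3 FPKM), Cpr11B (6.27 to 20.4 FPKM), Cpr60D (7.75 to 12.8 FPKM) and Cpr62Bb (6.84 to 12.8 FPKM) completed the 12 highest means. From Cpr49Ag down, the range of each gene overlapped that of its neighbour in this order except between Cpr47Ee and Cpr73D. Of the exonic bases of Cpr73D, 294 also belong to Ogdh, an abundant gene at 247 to 282 FPKM, so its level is uncertain.

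Runs of neighbouring members held genes of very different level. Of the 70 genes, 49 lie in 12 cytological bands with at least 2 members. In band 49A on 2R, 5 of 8 members had a mean of at least 1 FPKM, led by Cpr49Ag (33.2 FPKM) and Cpr49Ae (28.3 FPKM), while Cpr49Ad, the member just before Cpr49Ae, was listed at 0. In 47E, also on 2R, 3 of 7 members reached 1 FPKM, with Cpr47Ee at 24.2 FPKM and Cpr47Ef, 58 bp away on the other strand, at 4.70 FPKM. In 62B on 3L, Cpr62Ba, Cpr62Bb and Cpr62Bc all did. In 76B, Cpr76Bc stood at 13.1 FPKM and the next member at 0.711 FPKM. Bands 65E and 50C held 0 members with a mean of 1 FPKM. By chromosome arm, 12 of 35 members on 3L, 10 of 21 on 2R, 2 of 5 on 3R, 1 of 4 on X and 0 of 5 on 2L reached that mean.

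Most members at the silent end of the family rested on a few fragments or none. The 7 members listed at 0 in every library were Cpr49Ad, Cpr57A, Cpr65Ax1, Cpr65Ax2, Cpr65Ay, Cpr67Fa1 and Cpr67Fa2. Cpr65Ax1 and Cpr65Ax2 are close copies of each other, as are Cpr67Fa1 and Cpr67Fa2, and the sources used here do not state how reads with several matches were treated. All 1488 exonic bases of Cpr57A are shared with Obp57d on the same strand, which was listed at 0 as well. Of the 38 members with a mean above 0 and under 1 FPKM, 28 had fewer than 30 fragments over the 6 libraries together, and 16 had fewer than 10. The other 10 had 30 or more, up to 470.5 for Cpr76Bd. Cpr12A was above 0 in RNAi-Ctrl 3 alone (0.156 FPKM), and Cpr47Ec (0.112 FPKM) and Cpr47Ed (0.116 FPKM) in RNAi-GLAD 2 alone. Cpr49Ac stood at 1.18 FPKM in control 3, at 0.636 FPKM in RNAi-GLAD 1, and at 0.155 to 0.183 FPKM in the other libraries.

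Members with measurable levels varied more between libraries than most genes did. Over the 6 libraries the median coefficient of variation was 23.8% for the 25 members with a mean of at least 1 FPKM and 8.88% for all 9631 genes at that level. For means of 10 FPKM or more it was 18.5% (10 members) and 7.17% (6010 genes), and for 1 to under 10 FPKM it was 29.0% (15 members) and 13.2% (3621 genes). These are descriptions, and the difference was not tested. Cpr49Ab varied most of the 25, with 2.45, 3.24 and 5.68 FPKM under RNAi-Ctrl and 3.17, 0.625 and 1.49 FPKM under RNAi-GLAD. It was lowest in RNAi-GLAD 2 and 3, where Cyp4g1, an oenocyte enzyme of cuticular hydrocarbon synthesis, was at 0.370 and 4.04 FPKM against 110.5 to 283 FPKM in the others. The other 3 epidermis and oenocyte markers did not follow Cyp4g1: in RNAi-GLAD 2 and 3, FarO was at 2.84 and 6.07 FPKM against 4.36 to 6.88 FPKM elsewhere, grh at 13.9 and 16.8 FPKM against 12.7 to 16.3 FPKM, and Desat1 at 1173 and 1012 FPKM against 802 to 1472 FPKM. The sum of the 4 markers, most of it Desat1, was 1105 to 1622 FPKM under RNAi-Ctrl and 1039 to 1190 FPKM under RNAi-GLAD, all 4 were above 0, and their part in the Cpr49Ab levels was not tested. Cpr11B, with 6.27, 9.09 and 20.4 FPKM under RNAi-Ctrl and 7.62, 12.2 and 15.2 FPKM under RNAi-GLAD, was the only one of the 25 whose 2 highest libraries were those numbered 3, as for 8.2% of all genes. Cpr47Ef ranged from 2.24 FPKM in RNAi-GLAD 2 to 9.21 FPKM in RNAi-GLAD 3. The highest library differed between members, being RNAi-Ctrl 3 for 7 of the 25, RNAi-GLAD 3 for 6 and RNAi-GLAD 2 for 5.

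**Figure D2:**
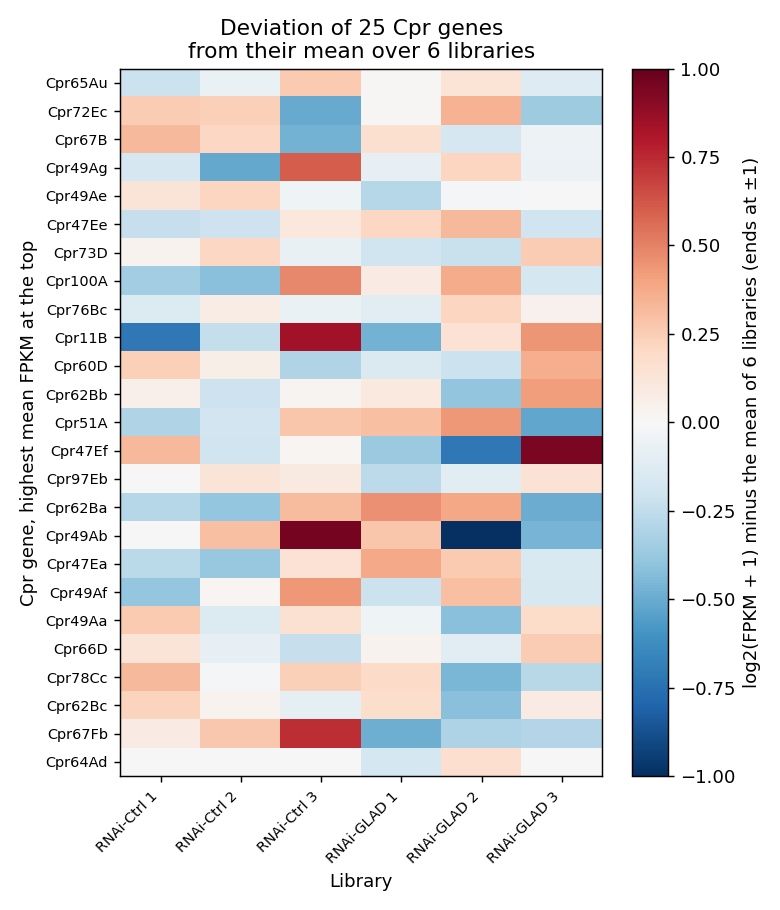
Each line of the heat map is 1 of the 25 Cpr genes with a mean of at least 1 FPKM and each column a library; colour gives log2(FPKM + 1) minus the gene's mean over the 6 libraries and ends at ±1. Cpr51A, Cpr62Ba and Cpr47Ee are high in RNAi-Ctrl 3 and in both RNAi-GLAD 1 and RNAi-GLAD 2, and Cpr49Ab is low in RNAi-GLAD 2.

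The comparison of RNAi-GLAD with RNAi-Ctrl asks which cuticle genes differ when the GLAD construct is expressed. With all 6 libraries as labelled, no Cpr gene passed the test. The 25 members with a mean of at least 1 FPKM were tested as log2(FPKM + 1) with limma among 9631 genes, and 0 members and 0% of all genes had an adjusted p under 0.05 (smallest adjusted p = 0.999). At an unadjusted p under 0.05 there was 1 member of 25 (4%), where the share of all genes was 1.16%, or 112 genes. Fold changes were positive for 13 members and negative for 12, with a median of 0.0013 on the log2 scale against 0.012 over all tested genes. The 95% confidence interval lay within 1 of 0 on the log2 scale for 20 of the 25 members and for 8889 of the 9631 tested genes. For the lens gene Cpr72Ec the group means were 433 ± 117 FPKM under RNAi-Ctrl and 432 ± 104 FPKM under RNAi-GLAD (SD, n = 3 each), and the interval of the log2 difference ran from -0.64 to 0.66. For Cpr65Au they were 734 ± 127 and 736 ± 69.2 FPKM, with an interval from -0.33 to 0.36.

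Cpr67Fb had the smallest p of the 25 members that passed the level filter. It had 1.32, 1.65 and 2.67 FPKM under RNAi-Ctrl and 0.562, 0.777 and 0.793 FPKM under RNAi-GLAD. Every RNAi-GLAD library was below every RNAi-Ctrl library, and it was the only one of the 25 members without overlap (4%). Of all tested genes 4% had groups without overlap, 1.17% with RNAi-GLAD lower and 2.82% with RNAi-GLAD higher. The log2 fold change of Cpr67Fb was -0.73 ± 0.21 (SE, unadjusted p = 0.0136, adjusted p = 0.999 with limma). It depends on the pseudocount, being -1.24 with 0.1 in place of 1, and the ratio of the group means was 0.378. These levels stand for 15, 18 and 36 fragments under RNAi-Ctrl and 6, 8 and 8 under RNAi-GLAD. The gene lies on 3L at 10894173 to 10894693, plus strand, beside Cpr67Fa1 and Cpr67Fa2, and 389 of its 457 exonic bases overlap asRNA:CR45171 on the minus strand, whose reads cannot be told apart from its own.

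The next members by p in the 6 libraries all had an adjusted p of 0.999. On the negative side were Cpr49Ab (log2 fold change -0.85 ± 0.40), Cpr49Ae (-0.20 ± 0.11) and Cpr78Cc (-0.36 ± 0.20). On the positive side were Cpr47Ea (0.33 ± 0.20), Cpr47Ee (0.22 ± 0.16), Cpr76Bc (0.09 ± 0.10) and Cpr66D (0.12 ± 0.16). Leaving out 1 library moved several of them by more than 1.5 times: Cpr76Bc to 0.0098 without RNAi-GLAD 2, Cpr66D to 0.02 without RNAi-GLAD 3, Cpr47Ee to 0.12 and Cpr49Ab to -0.52 without RNAi-GLAD 2, and Cpr49Ae to -0.11 without RNAi-GLAD 1. The level filter left out 45 members: Cpr64Ad, at 1.09 FPKM, was the last to enter, and Cpr92F (0.827 FPKM) and Cpr50Cb (0.814 FPKM) were the first to stay out. Without the filter, 5 of the 63 members above 0 had groups without overlap (7.94%), against 4.09% of 14388 genes. Cpr67Fb and Cpr92A were on the lower side, where the share of all genes was 1.3%, and Cpr76Ba, Cpr78Cb and Cpr5C on the higher side, where it was 2.79%. Cpr67Fb, Cpr76Ba and Cpr78Cb had an unadjusted p under 0.05, as did 1.2% of all genes. Cpr76Ba had the smallest of the 63 (unadjusted p = 0.00688 with limma), ahead of Cpr67Fb (0.00884). All 5 members without overlap had an adjusted p of 0.999. Cpr76Ba rested on 7, 5 and 8 fragments under RNAi-Ctrl and 20, 13 and 11 under RNAi-GLAD, and Cpr5C on 1, 1 and 1 against 2, 1 and 1. In a gene of 1 kb, 1 fragment was worth 0.0339 to 0.0419 FPKM under RNAi-Ctrl and 0.0429 to 0.0454 FPKM under RNAi-GLAD. Equal fragment counts in all libraries thus give RNAi-GLAD higher without overlap, so for genes of a few fragments, such as Cpr5C, the lack of overlap can reflect depth.

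In the 4 libraries numbered 1 and 2, 3 of the 25 tested members rose in RNAi-GLAD and 0 fell. They were Cpr51A, Cpr62Ba and Cpr47Ee, and they made up 12% of the members, where 5.45% of all 9661 tested genes were called, 4.1% as higher and 1.36% as lower. The median log2 fold change was -0.06 for the members and 0.02 for all genes, with 10 members positive and 15 negative. At an unadjusted p under 0.05 there were 8 members of 25 (32%), where the share of all genes was 24.9%. Groups did not overlap for 14 members (56%), where the share of all genes was 56.5%. In each direction there were 7 such members (28%), beside 32.5% of all genes with RNAi-GLAD higher and 24% with RNAi-GLAD lower. The shares without overlap were near those of all genes, and nothing particular to the family is read from 3 calls. Markers of other tissues also moved in these 4 libraries. Of 6 head fat body markers, 2 had positive and 4 negative fold changes (median log2 fold change -0.14). On the positive side, fit rose from 7.50 and 7.49 FPKM to 46.9 and 33.0 FPKM (adjusted p = 0.0186 with limma). Lsp2 went from 63.3 and 112 FPKM to 164 and 281 FPKM (adjusted p = 0.141 with limma). Both were highest in RNAi-Ctrl 3. The negative ones were apolpp, to, Yp1 and Yp2, with adjusted p from 0.309 to 0.988 (limma). The sum of the list was 995 and 700.2 FPKM against 652 and 824 FPKM, and Yp1 supplied 296 FPKM of the first value. Of 5 tested testis markers, 3 had positive and 2 negative fold changes (median log2 fold change 0.22). On the negative side, topi fell from 4.47 and 4.62 FPKM to 0.872 and 0.535 FPKM (adjusted p = 0.0225 with limma). The positive ones, Mst84Db, Mst87F and dj, were each highest in RNAi-GLAD 1 and lowest in RNAi-GLAD 2 among these 4 libraries. The list summed to 84.9 and 95.7 FPKM against 116 and 69.1 FPKM, most of it bol (67.8 to 78.8 FPKM). The remaining marker lists had 0 calls. All 4 epidermis and oenocyte markers had negative fold changes (median log2 fold change -0.31), as had 5 of 6 antenna markers (median -0.33). Medians of the neuron, photoreceptor, eye lens and cone cell, trachea, muscle and glia lists lay from -0.10 to 0.05. The part of these markers in the Cpr calls was not tested.

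Cpr51A (2R, 14512559 to 14515211, minus strand) held 6.77 and 7.36 FPKM in controls 1 and 2, beside 10.8 and 11.9 FPKM in their RNAi-GLAD counterparts. Its log2 fold change was 0.61 ± 0.08 (SE, adjusted p = 0.0356 with limma). For Cpr62Ba (3L, 1824129 to 1831783, minus strand) the control values 2.13 and 1.92 FPKM stood beside 4.23 and 3.96 FPKM after GLAD RNAi. Its log2 fold change was 0.75 ± 0.11 (adjusted p = 0.0447 with limma). Cpr47Ee (2R, 11265126 to 11266856, plus strand) went from 20.2 and 20.6 FPKM to 27.7 and 30.2 FPKM. Its log2 fold change was 0.48 ± 0.06 (adjusted p = 0.0341 with limma), and the groups did not overlap for any of the 3 genes.

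The calls depended on single libraries and on settings. Without RNAi-Ctrl 1, RNAi-Ctrl 2 or RNAi-GLAD 2, 0 members were called, with a smallest adjusted p of 0.209, 0.189 and 0.0863 (limma). Without RNAi-GLAD 1 the calls were Cpr51A, Cpr47Ee and Cpr100A, and Cpr62Ba had an adjusted p of 0.108. With median-of-ratios scaling Cpr62Ba alone passed, and with quantile scaling Cpr47Ee alone. Without the filter all 3 were lost (smallest adjusted p = 0.0660), without the trend Cpr62Ba alone passed, and with a replicate block Cpr62Ba was lost (adjusted p = 0.0657).

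In the libraries numbered 3 the same genes pointed the other way. The library labelled RNAi-Ctrl 3 held 10.6 FPKM of Cpr51A and that labelled RNAi-GLAD 3 held 5.66 FPKM, with Cpr62Ba at 3.74 and 1.70 FPKM and Cpr47Ee at 25.8 and 20.7 FPKM. On the log2 scale RNAi-GLAD 3 minus RNAi-Ctrl 3 was -0.80, -0.81 and -0.30, with 1 library a side and no test. Of the 25 members, 20 (80%) had a sign in this pair opposite to that in the 4 libraries, as had 75.1% of all tested genes and 99.1% of the 527 genes called. The direction of the 3 calls thus follows the labels of the libraries numbered 1 and 2 and goes against those of the libraries numbered 3. Cpr67Fb, Cpr49Ab, Cpr78Cc, Cpr76Bc and Cpr64Ad had the same sign in both. For Cpr67Fb the difference was -1.03 in libraries 3 and -0.57 ± 0.23 (adjusted p = 0.228 with limma) in the 4 libraries. Its shared sign follows from its groups without overlap and adds no separate evidence.

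**Figure D3:**
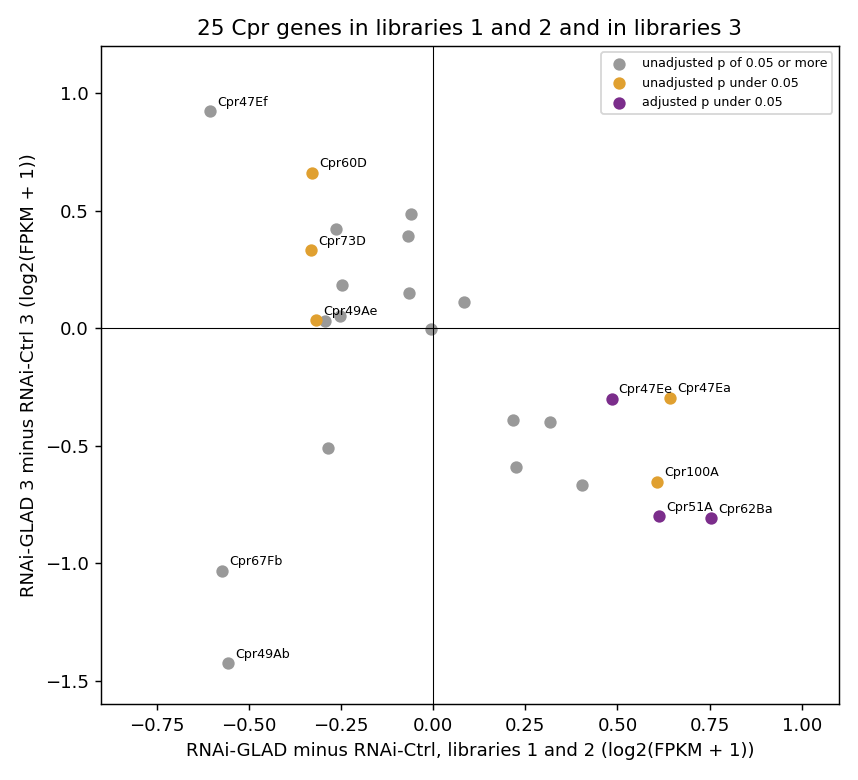
Each point is 1 of 25 Cpr genes; the horizontal axis is the log2(FPKM + 1) difference of RNAi-GLAD 1 and 2 from RNAi-Ctrl 1 and 2, and the vertical axis that of RNAi-GLAD 3 from RNAi-Ctrl 3. Of the points, 20 lie where the signs are opposite, Cpr51A, Cpr62Ba and Cpr47Ee among them, while Cpr67Fb and Cpr49Ab are below 0 on both axes.

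Members that missed the threshold in the 4 libraries included several abundant ones. Cpr100A held 10.9 and 10.3 FPKM in controls 1 and 2, beside 15.0 and 18.5 FPKM in the GLAD pair (log2 fold change 0.61 ± 0.11, adjusted p = 0.0642 with limma). Cpr47Ea, which shares 163 exonic bases with Or47a, had a fold change of 0.64 ± 0.12 (adjusted p = 0.0700). On the negative side stood Cpr73D (-0.33 ± 0.07, adjusted p = 0.0943), Cpr60D (-0.33 ± 0.08, adjusted p = 0.110), Cpr49Ae (-0.32 ± 0.11, adjusted p = 0.182) and Cpr47Ef (-0.61 ± 0.23, adjusted p = 0.217). Band 47E thus held fold changes of both signs within 26.7 kb, positive for Cpr47Ea and Cpr47Ee and negative for Cpr47Ef. Cpr65Au had a fold change of 0.22 ± 0.08 (adjusted p = 0.209) and Cpr72Ec of -0.06 ± 0.12 (adjusted p = 0.803), the latter with a 95% interval from -0.41 to 0.28.

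**Figure D4:**
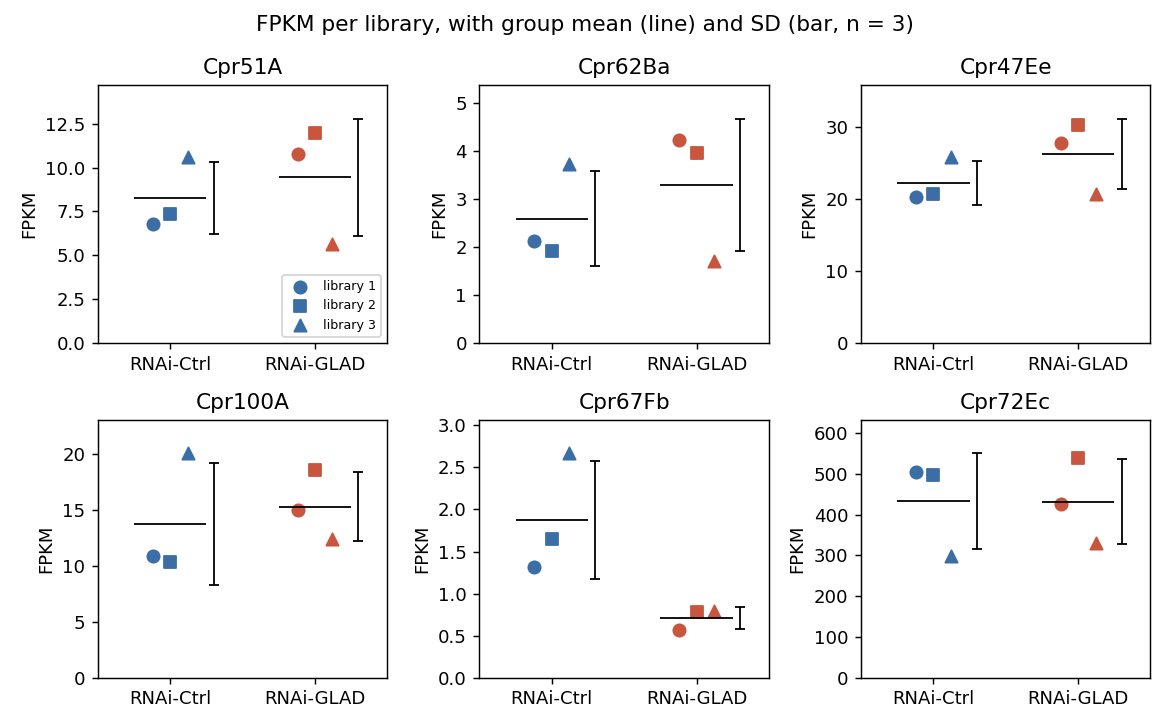
FPKM of 6 Cpr genes in each library, with 1 marker shape per library number, a line at the group mean and a bar for the SD (n = 3). In Cpr51A, Cpr62Ba, Cpr47Ee and Cpr100A libraries 1 and 2 are higher under RNAi-GLAD and library 3 is higher under RNAi-Ctrl; Cpr67Fb is lower in all RNAi-GLAD libraries, and Cpr72Ec is lowest in both libraries 3.

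Other genes of cuticle formation were followed in 7 lists. With all 6 libraries 0 of their 76 tested genes passed, as did 0% of all genes. In the 4 libraries 1 of 77 passed (1.3%), where the share of all genes was 5.45%. It was Idgf6, a secreted chitinase-like growth factor. It held 517 and 495 FPKM in controls 1 and 2 and fell to 356 and 385 FPKM in the GLAD pair (log2 fold change -0.45 ± 0.06, adjusted p = 0.0410 with limma), while libraries 3 held 382 FPKM (RNAi-Ctrl) and 501 FPKM (RNAi-GLAD). It was 1 of 16 tested chitinases and chitinase-like genes (median log2 fold change -0.06), of which Cht2 (0.59 ± 0.10, adjusted p = 0.0605), Cht5 (0.36 ± 0.07, adjusted p = 0.0636) and Idgf1 (0.32 ± 0.07, adjusted p = 0.0864) came next. Idgf4 was the most abundant of them, at 815 to 1003 FPKM.

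Of the other Rebers and Riddiford proteins, such as the Lcp and Ccp84A genes, 5 of 28 were tested and 0 called (median 0.08), with Ccp84Ag (0.30 ± 0.13) and Pcp (-0.30 ± 0.17) at the smallest p. Of the Tweedle, obstructor and other cuticle families, 13 of 40 were tested and 0 called (median -0.07). The smallest p there belonged to obst-A (0.77 ± 0.24, adjusted p = 0.154) and obst-E (-0.27 ± 0.10), and the highest levels to the chitin-binding proteins Gasp (35.3 to 42.7 FPKM) and obst-E (34.1 to 46.9 FPKM). For chitin synthesis and modification 0 of 10 tested genes were called (median 0.04), with Gfat2, which makes the amino sugar precursor, at 0.46 ± 0.09 (adjusted p = 0.0704). Chitin synthase kkv, at 0.249 to 0.446 FPKM, stayed under the filter. For tanning and pigment 0 of 18 were called (median -0.12), with yellow-f2 at -0.61 ± 0.14 (adjusted p = 0.0928) and tan (t), a hydrolase of dopamine and histamine conjugates, highest at 199.6 to 337 FPKM. Counts of 0 also held for the 5 tested genes of an apical matrix list (median -0.17) and 10 transcription factors of cuticle genes (median -0.06). The apical matrix genes tested were dpy, nompA, pio, qsm and trn. That list was meant for proteins with a zona pellucida domain, which trn is not.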

How the data were processed

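Libraries were sequenced as read pairs of 150 bp, per the labels' protocols. The authors deposited 1 table of FPKM values. The submitters' processing notes list TopHat, BDGP6 and dm6, without versions; counting tool, annotation and strand setting were not stated in any source at hand. Symbols were found for 15001 of 15682 FlyBase IDs; coordinates and exon lengths are from Ensembl release 115 (BDGP6). Fragments are FPKM times exon length divided by the step at which low values of genes with 1 transcript repeat; 74.8% to 79.2% of such values were whole within 0.05 fragments. Genes with a mean of at least 1 FPKM over the libraries of a fit entered limma 3.58.1 (R 4.3.3, mean-variance trend) on log2(FPKM + 1), which understates changes of low genes. Tests were two-sided, with Benjamini-Hochberg adjustment over all tested genes and a threshold of 0.05. The script was tested on simulated data. Members, gene lists and the comparison of 4 libraries were chosen with earlier results of these data known. Of 162 listed cuticle genes outside the family 149 matched. Cpr genes were named by level (12 highest), by call, as the 4 smallest p per direction, by being at 0 or by closeness to the filter, and listed genes by p or level; others, kkv among them, were picked with their values in view. Alternatives varied pseudocount, filter, scaling, trend, replicate block and libraries.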

Additional observations from a re-analysis of the deposited data

How the results depend on the processing

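With 6 libraries the count of Cpr genes called, and that of all genes, was 0 under each alternative run: pseudocounts of 0.1 and 0.5, no filter or a mean of 5 FPKM, median-of-ratios and quantile scaling, no trend, a replicate block, and each library left out in turn. It was also 0 without both libraries numbered 1 or both numbered 2, which were added after the data were seen. In the 4 libraries the 3 Cpr calls became 0 without the filter, 1 with median-of-ratios scaling, 1 with quantile scaling, 1 without the trend and 0 to 3 with a library left out, where the lone library is assumed to vary like the other group. The 527 genes called became 254 without the filter, 165 without the trend and 1 to 329 with a library left out. The cause was not tested. For the 4 Cpr genes of smallest p in each direction of each comparison, no fold change changed sign under these alternatives. Filter, trend and replicate block left each fold change as it was, so those settings could not change a sign. The genes were also picked by p, which favours a stable sign. Between the fits with 6 and 4 libraries the sign differed for 5 of the 25 members, with log2 fold changes of 0.12 and -0.06 for Cpr66D, 0.0013 and -0.33 for Cpr60D, 0.0066 and -0.06 for Cpr72Ec, 0.08 and -0.07 for Cpr62Bb and -0.05 and 0.23 for Cpr49Af. Deviations of same-numbered libraries from the means of the labelled groups correlated at -0.354, -0.404 and -0.460. Those means include the libraries numbered 3, which went against their labels. The correlations therefore cannot show whether same-numbered libraries were paired, and the main fits used no replicate block. With the replicate block 2 Cpr genes and 512 genes were called in the 4 libraries. Of the 38 members above 0 and under 1 FPKM, 28 rest on fewer than 30 fragments in all, which limits their precision, and 10 on 30 or more.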
